A study of Mus musculus with 30 samples.

Results

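The cytosolic ribosomal protein genes encode the protein parts of the ribosome that translates messages in the cytosol, and 72 of them were read here by 109 probes, out of 19406 named genes and 46643 probes. A probe was taken when its platform symbol was Rpl or Rps followed by a number, with an optional a, x or l, or was Rplp0, Rplp1, Rplp2 or Rpsa. S6 kinases (Rps6k) and pseudogenes were left out. Of the 72 genes, 46 belong to the large subunit and 26 to the small subunit, 47 had 1 probe and 25 had several. The rule reads names only, so no probe was dropped for a low value.

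Ribosomal proteins are made in step with ribosomal RNA, assembled with it in the nucleolus and exported as the small and large subunits. Their messages begin with a run of pyrimidines, the terminal oligopyrimidine tract, through which the kinase mTORC1 controls how well they are translated. Growth hormone acts through its receptor and the kinase JAK2, and in liver it drives the insulin-like growth factor Igf1, which feeds the mTORC1 pathway.

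The mice were males of 4 months of age, starved overnight before tissue was taken. Liver and subcutaneous fat were compared between 5 genotypes of the growth hormone receptor, written here as the labels write them. WT carries the normal receptor, 569 and 391 carry receptors cut short at those amino acids, Box1 carries a mutation in the segment that engages JAK2, and KO lacks the receptor. There were 3 arrays per genotype in each tissue, numbered 1 to 3 here in the order of deposit. Whether they came from separate animals is not in the labels, so the p-values speak only of the spread among these samples, possibly a technical one. In whole tissue, fewer cells of a type and less RNA per cell cannot be told apart.

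A deposited value is a ratio of a probe to its own median over the 15 arrays of the tissue, so it carries no absolute level and levels of different genes cannot be compared. Array medians over all probes lay between 0.98 and 1.01. Differences are given as log2 differences from limma, with all 15 arrays of a tissue in 1 fit, and a probe is called when its Benjamini-Hochberg adjusted p over all 46643 probes is under 0.05. The Igf1 probe 3130377 read 20.72, 18.39 and 18.92 in WT livers and 0.43 to 1.15 in the 391, Box1 and KO livers. The Ghr probe 2260156 was low in the livers labelled Box1, at 0.3, 0.26 and 0.23, and not in those labelled KO, at 1.51, 1.09 and 1.26. The other Ghr probe, 100360095, was not low in the Box1 livers, at 1.15, 1.28 and 0.96. The sources used here do not place the Ghr probes relative to the altered part of the gene, so this is no check of the labels, and a genotype name stands for the arrays so labelled. In each tissue 1 slide held the WT and 569 arrays and another the 391 and KO arrays, and the Box1 arrays of both tissues shared the fifth slide, so outside 569 against WT and KO against 391 slide and genotype cannot be told apart. Liver 391 arrays 2 and 3 stood apart by pancreatic transcripts, with 16 and 15 of 21 acinar probes above a log2 ratio of 1 where every other liver array had 0. Liver 391 array 2 also had 10 of 15 skeletal muscle probes above that mark. Fat 569 array 3 stood apart over all probes, with a 10th percentile of -1.0 on the log2 scale against -0.30 to -0.15 in the other fat arrays.

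Start sites are shown for the genes with called probes that the promoter table holds (Rps6, Rps21, Rpl10a and Rps9), for the members nearest to the common pattern (Rps10 and Rpl38) and for the muscle paralogue Rpl3l, so that the length of their pyrimidine runs can be compared. Each window runs from 15 bases before the annotated start to 14 bases after it, 5′ to 3′ on the gene's own strand, from RefSeq on GRCm38.p6, and the capitals mark its longest run of C or T. The runs of Rps6, Rps9, Rps10 and Rpl38 are 10, 9, 13 and 10 bases long, those of Rps21 and Rpl10a only 7 each, and that of Rpl3l 5. The Rpl10a run lies wholly before the annotated start and the Rpl3l run wholly after it, while the others span it. A length given here is therefore not the length of a tract at the start of the message. The table lists 2 starts for Rps21, Rpl10a and Rpl3l, of which 1 is shown. In the order printed, the windows lie at chr4:86857353-86857382 (minus strand), chr2:180257364-180257393 (plus), chr17:28328456-28328485 (plus), chr7:3704026-3704055 (plus), chr17:27635230-27635259 (minus), chr11:114668565-114668594 (plus) and chr17:24727811-24727840 (plus).
Rps6: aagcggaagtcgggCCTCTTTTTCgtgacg
Rps21: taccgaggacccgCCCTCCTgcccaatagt
Rpl10a: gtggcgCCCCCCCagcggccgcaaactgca
Rps9: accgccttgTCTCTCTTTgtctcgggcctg
Rps10: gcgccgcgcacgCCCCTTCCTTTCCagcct
Rpl38: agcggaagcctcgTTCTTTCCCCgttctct
Rpl3l: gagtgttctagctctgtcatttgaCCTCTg

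A promoter window was held for 58 of the 72 genes, as 70 windows from 250 bases before to 50 bases after a start. A run of at least 8 pyrimidines within 25 bases of the start, on the gene's strand, was present in 32 of 70 member windows (45.7%) and in 19.7% of all 32851 windows. The ETS family motif CCGGAAG, searched on both strands, was in 26 windows (37.1%) against 8.86% of all. The motif AAGATGG, named for YY1, was in 15.7% against 6.34%, and the Sp family motif GGGCGG in 57.1% against 35.7%. The TATA box letters TATAAA were in 8.57% of member windows and in 13.6% of all. CCGGAAG and AAGATGG can share the letters AAG, and GGGCGG can share end letters with a reversed CCGGAAG. A match is a description and not a bound site, and the arrays hold no binding data. The 250 bases before the Rps6 and Rps10 starts, chr4:86857368-86857617 and chr17:27635245-27635494, both on the minus strand, are shown with CCGGAAG and, in Rps10, GGGCGG in capitals.
Rps6: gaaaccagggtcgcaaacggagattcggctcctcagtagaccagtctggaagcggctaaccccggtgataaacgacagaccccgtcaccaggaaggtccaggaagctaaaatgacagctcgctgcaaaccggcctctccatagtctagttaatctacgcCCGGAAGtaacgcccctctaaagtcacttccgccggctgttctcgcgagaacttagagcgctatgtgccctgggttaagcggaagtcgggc
Rps10: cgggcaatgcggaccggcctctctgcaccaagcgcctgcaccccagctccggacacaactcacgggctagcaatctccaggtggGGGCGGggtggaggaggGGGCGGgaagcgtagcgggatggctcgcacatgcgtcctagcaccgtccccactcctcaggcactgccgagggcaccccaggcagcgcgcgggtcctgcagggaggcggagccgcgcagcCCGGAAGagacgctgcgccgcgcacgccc

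As a group, the ribosomal protein probes lay slightly higher in the 391 and Box1 livers than in WT, and in fat no genotype stood clear of WT. In liver the median log2 ratio of the 109 probes was 0.00, -0.14 and -0.06 in the WT arrays and -0.01, -0.36 and -0.29 in the 569 arrays. It was 0.20, 0.03 and 0.12 in the 391 arrays, 0.06, 0.06 and 0.01 in the Box1 arrays and -0.01, 0.08 and -0.09 in the KO arrays. All 3 of the 391 arrays and all 3 of the Box1 arrays lay above every WT array, while 569 and KO overlapped WT. The means of the 5 genotypes spanned 0.34 on the log2 scale. The 569 arrays alone also spanned 0.34, while the arrays of Box1 spanned 0.04, of WT 0.14, and of 391 and of KO 0.17 each.

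In fat the same median was 0.16, -0.17 and 0.10 in WT, 0.06, -0.14 and -0.64 in 569, and 0.14, -0.01 and -0.15 in 391. It was 0.18, 0.19 and -0.22 in Box1 and 0.21, -0.01 and -0.04 in KO. Every mutant overlapped WT, and the range within the 569 arrays, 0.70, was larger than the span of the 5 genotype means, 0.29. After quantile normalization within the tissue, fat 569 array 3 read -0.19 in place of -0.64.

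**Figure D1:**
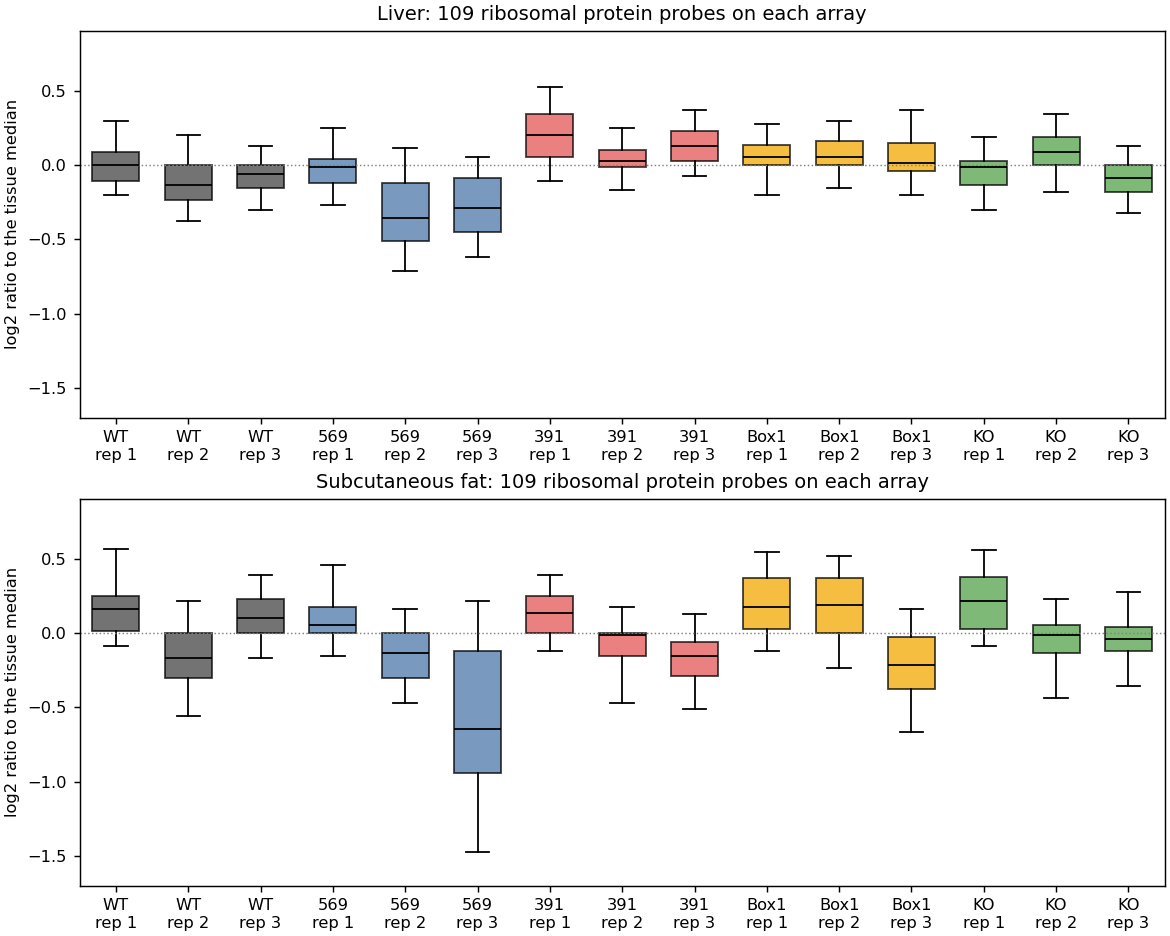
Log2 ratio to the tissue median of the 109 ribosomal protein probes on each of the 15 liver arrays and 15 fat arrays, with boxes at the quartiles, a line at the median and whiskers at the 5th and 95th percentiles. The liver 391 and Box1 medians lie above the WT medians, the liver 569 arrays 2 and 3 lie at -0.36 and -0.29, and fat 569 array 3 lies lowest at -0.64.

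In the livers with the 391 receptor, 5 ribosomal protein probes rose against WT and none fell, a share of 4.59% where 1.91% of all probes were called. The 5 were Rps6, the small subunit protein that S6 kinases phosphorylate, Rpl3 near the catalytic centre of the large subunit, Rps21, Rpl10a of the large subunit's L1 stalk, and the zinc-binding Rps29. Over all 109 probes, 90 lay above WT and the median difference was 0.22, against 0.02 over all probes. All 3 of the 391 arrays lay above all WT arrays for 44 probes (40.4%), where 9.18% of all probes did so, and below them for 3 (2.75%), where 5.28% of all probes did so. At an unadjusted p under 0.05 the members held 45 probes (41.3%), where 12.4% of all probes passed. The median difference was 0.17 over the 70 large subunit probes and 0.27 over the 39 small subunit probes.

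Rps6 probe 101570750 read 0.93, 0.81 and 0.85 in the WT livers and 1.44, 1.19 and 1.16 in the 391 livers. The 391 arrays all lay above the WT arrays, and the log2 difference was 0.54 ± 0.11 (SE, n = 3 and 3), with a limma adjusted p of 0.022. Rpl3 probe 2060138 read 0.92, 0.67 and 0.94 in WT and 1.41, 1.17 and 1.52 in 391. The groups did not overlap, and the difference of 0.70 ± 0.16 was the largest of the 5 called probes (limma adjusted p = 0.035). Rps21 probe 3120673 read 0.87, 0.84 and 0.91 in WT and 1.15, 1.06 and 1.23 in 391, a difference of 0.39 ± 0.09 (limma adjusted p = 0.046). Rpl10a probe 104060020 went from 0.93, 0.8 and 0.87 in WT to 1.26, 1 and 1.23 in 391, a difference of 0.42 ± 0.10 (limma adjusted p = 0.048). Rps29 probe 580324 went from 0.83, 0.81 and 0.79 in WT to 1.33, 0.93 and 1.18 in 391, a difference of 0.49 ± 0.12 (limma adjusted p = 0.049). None of these last 3 overlapped WT either, and in each of them 391 array 2 was the lowest 391 value. The other Rpl10a probe, 4850066, overlapped WT, at 1.08, 0.96 and 1.16 in 391 and 1.05, 0.88 and 1 in WT.

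**Figure D2:**
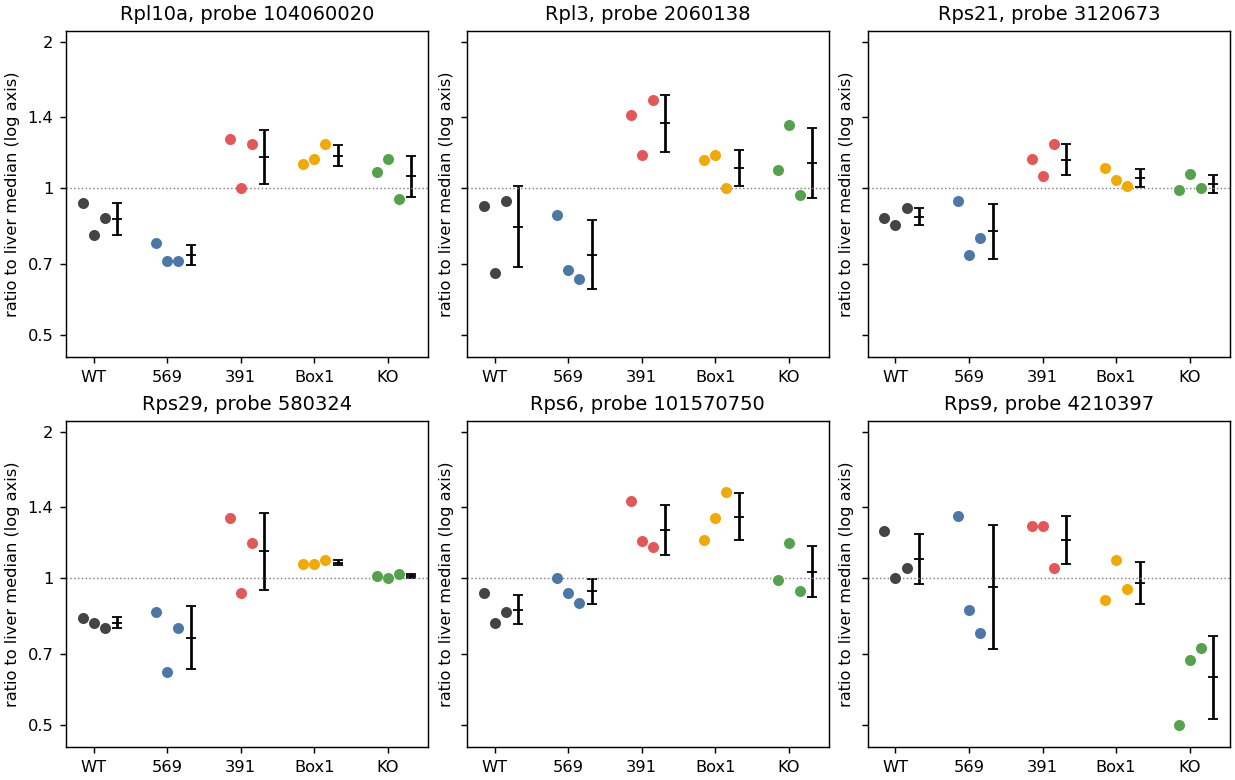
Ratio to the liver median, on a log axis, of the 6 ribosomal protein probes called in a liver comparison, with a point for each of the 3 arrays of a genotype and a bar for the mean and SD of their log2 ratios. Rps6, Rpl3, Rps21, Rpl10a and Rps29 lie higher in the 391 arrays than in the WT arrays, and Rps9 probe 4210397 lies lowest in the KO arrays, between 0.5 and 0.72.

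These 5 calls sat close to the threshold. Without 391 array 1, without WT array 2 or without WT array 3 the count fell to 0, and without 391 array 3 it was 1, Rps6. The median difference stayed between 0.16 and 0.26 in the same fits. Without both arrays that carry pancreatic transcripts, the 391 group is 1 array, which is assumed to vary like the arrays of the other groups. That fit called 6 probes, with a median difference of 0.27. Array 1, which has 0 of 21 acinar probes above the mark, had a member median of 0.20, and arrays 2 and 3 had 0.03 and 0.12. After quantile normalization 4 probes were called (3.67%, against 1.78% of all probes), with Rpl10a at an adjusted p of 0.065 (0.015 to 0.21 over its 13 alternatives), and the median difference was 0.18 with 89 of 109 probes above WT.

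In the Box1 livers 1 ribosomal protein probe rose and none fell, a share of 0.917% where 1.32% of all probes were called. Rps6 probe 101570750 read 1.2, 1.33 and 1.5 against the WT values above, with no overlap, and the difference was 0.63 ± 0.11 (limma adjusted p = 0.011). Rpl10a probe 104060020, at 1.12, 1.15 and 1.23, differed by 0.43 ± 0.10 and missed the threshold (limma adjusted p = 0.052). Rps20 probe 106860242 differed by -0.29 ± 0.08 (limma adjusted p = 0.088), with 0.87, 0.83 and 0.74 in Box1 and 1, 0.97 and 1.01 in WT. The other Rps20 probes overlapped WT, with probe 1740092 at 1.09, 1.04 and 0.98 against 1, 0.83 and 0.94, and probe 104920010 at 1.06, 1.02 and 1 against 1.05, 0.9 and 0.93. Over all 109 probes the median difference was 0.15 and 82 lay above WT, and 32 probes (29.4%) lay above WT without overlap, where 11.5% of all probes did. At an unadjusted p under 0.05 there were 26 probes (23.9% against 12.3% of all probes), 24 of them higher. After quantile normalization 2 probes were called higher, Rps6 and Rpl10a, and Rps20 probe 106860242 was called lower (2.75% against 1.72% of all probes), and the median was 0.10 with 77 probes above WT. The Rps6 call was lost without Box1 array 3, WT array 2 or WT array 3, which left 0 called probes, and 2 were called without Box1 array 1 or WT array 1.

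In the KO livers 1 ribosomal protein probe fell and none rose, 0.917% where 1.93% of all probes were called. Rps9 probe 4210397, for a small subunit protein that binds ribosomal RNA early in assembly, read 1.25, 1 and 1.05 in WT and 0.5, 0.68 and 0.72 in KO. The groups did not overlap, and the difference was -0.81 ± 0.18 (limma adjusted p = 0.034). The other Rps9 probes did not show this: probe 3610021 read 0.93, 0.95 and 0.8 in KO and 0.94, 1 and 1.01 in WT, and probe 6980131 read 0.92, 1.24 and 1.06 in KO and 0.84, 0.83 and 1 in WT. Rpl13a, a large subunit protein that also acts in translational control, had probe 5700142 at 0.73, 0.95 and 0.87 in KO and 1.31, 1.17 and 1.17 in WT, a difference of -0.52 ± 0.14 (limma adjusted p = 0.073). Rpl36 probe 6450347 read 1.18, 1.69 and 1.03 against 1, 0.77 and 0.84, a difference of 0.56 ± 0.19 (limma adjusted p = 0.18). The members as a whole lay near 0, with a median difference of 0.06 and 71 of 109 above WT, and 14 probes (12.8%) lay above WT without overlap where 10.6% of all probes did. At an unadjusted p under 0.05 there were 13 probes (11.9% against 12.7% of all probes). After quantile normalization Rps9 and Rpl13a were both called lower (1.83% against 2.3% of all probes), and the median was 0.02 with 61 probes above WT. Leaving out 1 array moved the median from 0.02, without KO array 2, to 0.10, without KO array 3. The Rps9 call was lost, leaving 0, without KO array 1, KO array 2 or any 1 of the WT arrays.

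KO and 391 lay on 1 slide, so this comparison of no receptor with the shorter receptor is free of the slide. None of the 109 probes was called by limma, where 0.18% of all probes were, and 19 passed an unadjusted p under 0.05, all of them lower in KO (17.4% against 8.19% of all probes). The median difference was -0.14, with 89 of 109 probes lower in KO, and 17 probes (15.6%) lay below 391 without overlap where 6% of all probes did. That median stayed between -0.22 and -0.10 over 13 alternatives, of which 1 left out both arrays with pancreatic transcripts. Rps9 probe 4210397, at 0.5, 0.68 and 0.72 in KO and 1.28, 1.28 and 1.05 in 391, had the smallest p, with a difference of -0.94 ± 0.18 (limma adjusted p = 0.060). Rpl27a probe 110195 read 0.77, 0.87 and 0.92 against 1.15, 1.01 and 1.22 (-0.40 ± 0.11), and Rps3 probe 2370170 read 0.89, 1.03 and 0.79 against 1.41, 1.12 and 1.18 (-0.45 ± 0.13). Neither pair of groups overlapped, and neither probe was called, at limma adjusted p of 0.25 and 0.26. With quantile normalization Rps9 probe 4210397 was called lower (0.917% against 0.27% of all probes), and without 391 array 3 also 1 probe was called.

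The 569 and WT livers also shared a slide, and here the members lay lower. None was called by limma, where 0.00858% of all probes were, and 20 passed an unadjusted p under 0.05, all lower (18.3% against 7.01% of all probes). The median difference was -0.17, with 91 of 109 probes below WT, against a median of -0.02 over all probes. It was -0.27 without 569 array 1 and -0.11 without 569 array 2. After quantile normalization it was -0.09, with 85 probes below WT, 0 called by limma (0.0107% of all probes) and 5 at an unadjusted p under 0.05 (4.59% against 5.62% of all probes). Array 1 of the 569 livers sat with WT and arrays 2 and 3 below it, and the 569 arrays lay below all WT arrays for 11 probes (10.1%), where 6.72% of all probes did. Arrays 2 and 3 also had the lowest 10th percentiles over all probes, -0.34 and -0.30 against -0.25 to -0.15 in the other liver arrays. Rps12 probe 104810711 read 0.79, 0.62 and 0.65 against 0.98, 0.79 and 0.87, a difference of -0.36 ± 0.11 (limma adjusted p = 0.46). Rpl5 probe 840095, for a large subunit protein that binds the 5S RNA, read 0.88, 0.63 and 0.7 against 1.07, 0.87 and 0.87, a difference of -0.35 ± 0.11 (limma adjusted p = 0.51). Both pairs of groups overlapped. Rpl30 probe 103610551 read 0.48, 0.36 and 0.95 against 1.56, 1.28 and 1 with no overlap, a difference of -1.20 ± 0.38 (limma adjusted p = 0.51).

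**Figure D3:**
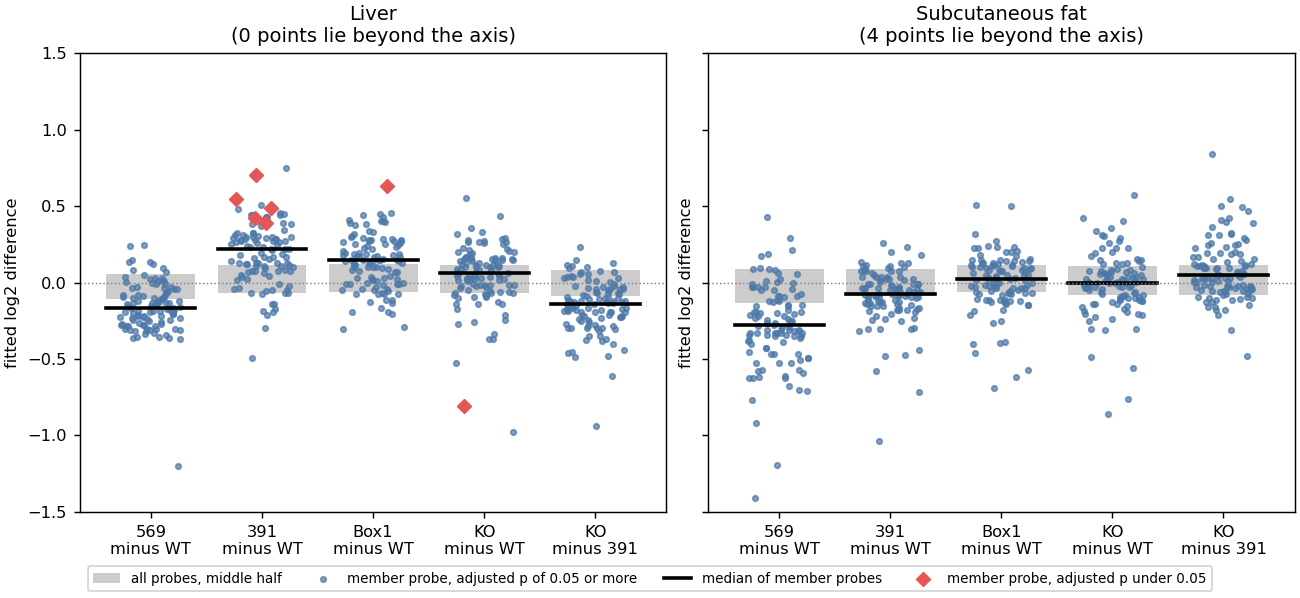
Fitted log2 difference of each of the 109 ribosomal protein probes in the 5 comparisons of each tissue, with a black line at their median, a grey band for the quartiles of all 46643 probes and red diamonds for called probes. The member median lies above the band in liver 391 (0.22) and Box1 (0.15) and below it in liver 569 (-0.17), liver KO against 391 (-0.14) and fat 569 (-0.28), and the 4 points beyond the fat axis are Rpl3l.

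Marker lists of liver cell types were read beside the members, since some moved with them. Against WT the 14 endothelial probes had a median difference of -0.16 in 569 (1 above WT), 0.13 in 391 (9 above, with Pecam1 called at 0.65 ± 0.12), 0.16 in Box1 (9 above) and 0.14 in KO (10 above). The 14 macrophage probes had 0.06, 0.08, 0.23 and 0.27, with 10, 11, 12 and 11 above WT. The 16 T and B lymphocyte probes had 0.00, 0.21, 0.09 and 0.30, and the 14 hepatocyte probes -0.04, 0.13, 0.15 and 0.06. As deposited, the endothelial and the hepatocyte lists thus both have the sign of the members in all 4 mutants. The adipocyte list and the median over all probes have it too. After quantile normalization the hepatocyte list turned to 0.01 in 569 (8 of 14 above WT), where the members stayed at -0.09. The part of any of these cells in the member values was not tested.

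Rplp0, the stalk protein often used as a reference gene, was called in no comparison by any of its 3 probes. In liver its probe 5390152 read 1.01, 1.1 and 0.91 in WT, 0.94, 1 and 0.94 in 569, 1.47, 1.25 and 0.97 in 391, 1.19, 0.99 and 1.32 in Box1 and 0.87, 1.04 and 0.92 in KO, and all mutants overlapped WT. Its fitted liver differences from WT ran from -0.09 in KO to 0.27 in 391. Rpsa, the 40S protein also known as the laminin receptor, was called nowhere either, and its probe 2360408 read 1, 1.08 and 1.04 in WT livers and 0.82 to 1.13 in the mutants. Rps27l, a p53-induced paralogue of Rps27, lay above WT in all Box1 livers at 1.15, 1.18 and 1.15 against 1.06, 0.82 and 1, a difference of 0.28 ± 0.11 (limma adjusted p = 0.29).

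Rps6 showed how far the call depends on the probe. Probe 2060168 read 1.02, 0.63 and 1 in WT livers, 1.16, 0.91 and 1.1 in 391 and 0.99, 1.31 and 1.24 in Box1, so both groups overlapped WT. Its differences from WT were 0.28 ± 0.19 in 391 and 0.44 ± 0.19 in Box1 (limma adjusted p = 0.62 and 0.34). Probe 106370373 stayed near 1, with 1, 1.02 and 1.02 in WT, 1.11, 0.91 and 0.89 in 391 and 1.16, 0.96 and 0.84 in Box1. Over the 15 liver arrays the called probe 101570750 had a Pearson r of 0.75 with the first of these and -0.21 with the second. Probe positions on the transcripts were not used here.

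In fat no ribosomal protein probe was called in any of the 5 comparisons by limma. The share of all probes called was 0% in 569, 0.0129% in 391, 0.00214% in Box1 and 0% in KO, each against WT, and 0.0172% in KO against 391, so fat gave almost no calls for any gene. At an unadjusted p under 0.05 the members held 7, 2, 4, 2 and 4 probes in that order, or 6.42%, 1.83%, 3.67%, 1.83% and 3.67%, where all probes had 8.96%, 4.58%, 4.54%, 6.24% and 6.7%. The median differences were -0.28, -0.07, 0.02, 0.00 and 0.05, and after quantile normalization -0.13, -0.09, -0.04, -0.03 and 0.03. None was called after quantile normalization either, where the shares of all probes were 0%, 0.0515%, 0.00214%, 0.0879% and 0.174%, and 4, 4, 5, 7 and 6 members passed an unadjusted p under 0.05 (3.67%, 3.67%, 4.59%, 6.42% and 5.5%, where all probes had 6.29%, 5.81%, 6.9%, 9.35% and 9.67%). Leaving out 1 array turned the sign in 391, Box1, KO and KO against 391, and in 569 kept it between -0.46 and -0.07, the last without 569 array 3.

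Single fat values with the smallest p were as follows. Rpl30 probe 103610551 read 1.42, 1.24 and 1 in WT, 0.44, 0.42 and 0.51 in 569 and 0.51, 0.43 and 0.93 in 391. Neither mutant overlapped WT, with differences of -1.41 ± 0.35 and -1.04 ± 0.35 (limma adjusted p = 0.55 and 1.0). The other Rpl30 probe, 4810369, read 1.03, 1 and 0.56 in 569 against 1.58, 1 and 1.09 in WT and had an r of 0.08 with it over the fat arrays. In 569 the next were Rps20 probe 106860242 (0.18 ± 0.07) and Rpl3l, described below. In 391 they were Rps2 probe 1340647 (-0.47 ± 0.20) and Rpsa probe 2360408 (0.23 ± 0.12). In Box1 the first 3 were Rpl4 probe 5420324 (-0.25 ± 0.09), Rpsa probe 2680736 (-0.40 ± 0.16) and Rplp0 probe 5550373 (-0.39 ± 0.16). In KO they were Rpl37 probe 4280494 (-0.30 ± 0.11), Rpl4 probe 5420324 (-0.22 ± 0.09) and Rpl36 probe 6450347 (0.57 ± 0.27). For KO against 391 they were Rps25 probe 520139 (0.47 ± 0.17), Rps27l (0.42 ± 0.17) and Rpl30 probe 103610551 (0.84 ± 0.35). The limma adjusted p of these ran from 0.55 to 1.0, and none differs from WT or 391 by the threshold used.

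In the WT, Box1 and KO fat groups, the arrays that were low in ribosomal protein probes were also low in a list of 16 T and B lymphocyte probes. The lymphocyte median was 1.03, -1.89 and 0.50 in the WT arrays, whose member medians were 0.16, -0.17 and 0.10. It was 0.48, 0.94 and -2.52 in Box1, where the member medians were 0.18, 0.19 and -0.22, and 0.56, -2.52 and -2.0 in KO, where they were 0.21, -0.01 and -0.04. In 391 it was 0.74, 0.54 and 0.00 beside 0.14, -0.01 and -0.15. All 3 of the 569 arrays were low in lymphocyte probes, at -2.30, -2.43 and -3.01, and array 3 was also low in the adipocyte list (-2.32), the macrophage list (-1.04) and the endothelial list (-1.25). Within WT, Box1 and KO the skeletal muscle list was higher in the same low arrays. Its medians were -2.74, -2.12 and -2.56 in WT, -2.25, -2.25 and 4.32 in Box1 and -0.69, 3.58 and 1.20 in KO. In 391 and 569 it did not follow this order, at 0.96, 0.00 and 1.68 and at 4.21, -2.74 and 5.03. A ratio holds no level, so which markers are at 0 cannot be read. The part of lymphocytes, muscle or the other cells in the fat medians was not tested.

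**Figure D4:**
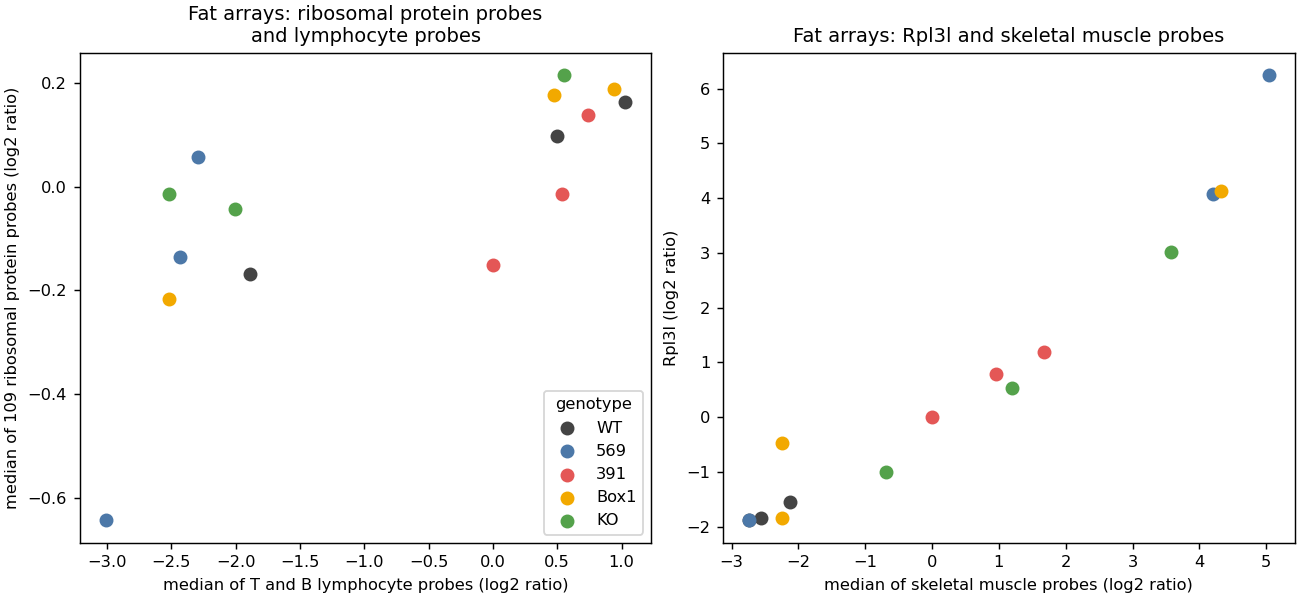
Left, the median log2 ratio of the 109 ribosomal protein probes on each fat array against the median of the T and B lymphocyte probes; right, the log2 ratio of Rpl3l against the median of the skeletal muscle probes, with 1 point per array coloured by genotype. The lowest member median, -0.64, belongs to the array with the lowest lymphocyte median, -3.01, and Rpl3l is highest in the array with the highest muscle median, 5.03.

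Rpl3l, the paralogue of Rpl3 made in striated muscle, was the member with the widest range. In fat it read 0.27, 0.34 and 0.28 in WT, 16.84, 0.27 and 75.64 in 569, 1.73, 1 and 2.27 in 391, 0.28, 0.72 and 17.59 in Box1 and 0.5, 8.07 and 1.45 in KO. The 391 and KO arrays lay above the WT arrays and the others overlapped them, and no difference from WT was called (569: 4.57 ± 1.87, limma adjusted p = 0.55). The skeletal muscle list followed it, with medians of -2.74, -2.12 and -2.56 in WT, 4.21, -2.74 and 5.03 in 569 and -2.25, -2.25 and 4.32 in Box1. In liver Rpl3l read 5.99 in 391 array 2, the array with 10 of 15 muscle probes above a log2 ratio of 1, and 0.92 and 0.98 in the other 391 arrays. Muscle transcripts and Rpl3l thus moved together array by array, and their part in the genotype values of Rpl3l was not tested further.

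Whether a difference from WT was larger in liver than in fat was tested for each probe in 1 fit of all 30 arrays. None of the 109 probes was called for 569, 391, Box1 or KO by limma, where 0%, 0.227%, 0.148% and 0.341% of all probes were. At an unadjusted p under 0.05 there were 3, 6, 6 and 3 probes (2.75%, 5.5%, 5.5% and 2.75%), below the 7.75%, 7.17%, 5.56% and 8.52% of all probes. The smallest adjusted p was that of Rps20 probe 106860242 in Box1, with -0.29 in liver and 0.10 in fat (limma adjusted p = 0.16). Rps29 in 391 had 0.49 in liver and -0.09 in fat (limma adjusted p = 0.34). Without fat 569 array 2, 1 probe was called lower for 569. The liver calls above are therefore not shown to differ from fat.

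Most members moved together from array to array. Each probe was set against the median of the other members over the 15 arrays of a tissue, which share their RNA and hybridization within an array, and the r is given as a description. The median r was 0.78 in liver and 0.79 in fat, with 71 and 77 of the 109 probes above 0.5 and 10 and 15 below 0. No share of all probes above 0.5 is given beside these counts, so they do not set the members apart from other probes. The probes nearest to the common pattern in liver were Rpl38 probe 70040 (0.97), Rpl19 (0.97) and Rps7 (0.96), and in fat Rps10 (0.99), Rps28 (0.97) and Rps3 probe 2370170 (0.97). Rps10 read 1.39, 0.82 and 1.17 in WT fat, 1.05, 0.78 and 0.45 in 569, 1.23, 1 and 0.81 in 391, 1.35, 1.41 and 0.83 in Box1 and 1.3, 1 and 0.97 in KO. The least alike were Rpl4 probe 5420324 (-0.60), Rpl23 probe 2260452 (-0.34) and Rpl4 probe 2940014 (-0.32) in liver, and Rpl3l (-0.65), Rps20 probe 106860242 (-0.53) and Rplp0 probe 5550373 (-0.41) in fat. The 3 least alike liver probes varied little, with an SD of 0.10 on the log2 scale for Rpl4 probe 5420324 and Rpl23 probe 2260452, where the median member had 0.22. Rpl3l in fat varied most, with an SD of 2.61.

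Probes of 1 gene were often unlike. Over 50 pairs of probes for the same gene the median r was 0.24 in liver, with 13 pairs below 0 and 18 above 0.5, and 0.26 in fat, with 17 and 17. Rpl23 probes 4850435 and 6450673 had an r of 0.80 in liver, while the first of them had -0.17 with probe 2260452. Rps20 probes 1740092 and 104920010 had 0.91 in liver and 0.14 in fat. Rpl13a probes 2680519 and 5700142 had 0.59 in liver and 0.96 in fat. The 20 member probes numbered above 100000000 had a median likeness to the other members of 0.49 in liver, against 0.85 for the other 89, and 0.74 against 0.82 in fat. Averaging the probes of a gene first gave a median over the 72 genes of 0.26 in liver 391, 0.18 in Box1, 0.10 in KO and -0.15 in 569, with 64, 63, 54 and 7 genes above WT.

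The non-member probes most like the median member in liver, out of 32685 searched, were 2310039H08Rik (r = 0.96), Reln (0.96), Rbm42 (0.94), Ecm1 (0.94) and Mlycd (0.94), and 704 probes exceeded 0.8. In fat they were Prr14 (0.97), Fau (0.97), which encodes a small subunit protein fused to a ubiquitin-like domain, the pseudogene Rps19-ps3 (0.97), the nucleolar Fbl (0.96) and Inpp5d (0.96), and 1426 probes exceeded 0.8.

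Other genes of the translation machinery were listed with their counts. In liver 391 against WT, 5 of 61 probes for initiation factors were called (8.2%, against the 1.91% of all probes), all higher: Eif3i (0.79 ± 0.15), the eIF2B subunit Eif2b5 (0.69 ± 0.11), the cap-binding Eif4e (0.60 ± 0.11), Eif2s3x (0.51 ± 0.11) and Eif1ax (0.48 ± 0.11). Of 129 probes for mitochondrial ribosomal proteins 7 were called (5.43%), all higher, led by Mrps35 (0.62 ± 0.14), Mrpl46 (0.62 ± 0.13) and Mrpl27 (0.61 ± 0.14). Of 64 probes for ribosome biogenesis 2 were called (3.12%), Pes1 (0.79 ± 0.17) and Riok1 (0.69 ± 0.16), both higher. None of 15 probes for elongation factors was called by limma, with 3 at an unadjusted p under 0.05 and 13 of 15 above WT. The list medians were 0.12 for initiation, 0.12 for mitochondrial ribosomal proteins, 0.14 for biogenesis and 0.20 for elongation, beside 0.22 for the cytosolic ribosomal proteins and 0.02 for all probes. In the mTORC1 list 1 of 54 probes was called (1.85%, near the share of all probes), Sesn1, an inhibitor of mTORC1, at 0.71 ± 0.14, and of 19 probes for other pyrimidine-tract messages 1 was called (5.26%), Vim, at 0.86 ± 0.21. After quantile normalization the counts of called probes were 5 for initiation, 7 for mitochondrial ribosomal proteins, 1 for biogenesis, 1 for mTORC1 and 2 for the other pyrimidine-tract messages.

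In liver Box1, 3 initiation factor probes were called higher, Eif5b (0.76 ± 0.13), Eif2b5 (0.51 ± 0.11) and Eif2s3x (0.48 ± 0.11), with 2 mitochondrial ones, Mrpl23 (0.77 ± 0.18) and Mrps16 (0.49 ± 0.11), shares of 4.92% and 1.55% where 1.32% of all probes were called. The translation repressor Eif4ebp2 of the mTORC1 list was also called higher (0.61 ± 0.13), 1.85% of that list against 1.32% of all probes. No elongation, biogenesis or other pyrimidine-tract probe was called by limma. At an unadjusted p under 0.05 these lists held 4, 13 and 4 probes, or 26.7%, 20.3% and 21.1% against 12.3% of all probes. After quantile normalization 4 initiation probes were called higher, and of the mitochondrial ones 2 were called higher and 2 lower. The medians were 0.15 for elongation, 0.10 for initiation and 0.16 for mitochondrial ribosomal proteins. In KO no initiation or elongation probe was called by limma (7 and 2 at an unadjusted p under 0.05, or 11.5% and 13.3% against 12.7% of all probes), and their medians were 0.03 and 0.01. Of the mitochondrial ribosomal probes 4 were called higher in KO, led by Mrpl27 (0.80 ± 0.14), Mrps24 (0.53 ± 0.11) and Mrps16 (0.48 ± 0.11), and Mrps12 was called lower (-0.93 ± 0.17), with a list median of 0.13 and a share of 3.88% against 1.93% of all probes. The biogenesis genes Pes1 (0.69 ± 0.17) and Ncl (0.34 ± 0.08) and the mTORC1 inhibitor Sesn1 (0.60 ± 0.14) were called higher in KO, and Nap1l1 of the other pyrimidine-tract list lower (-0.67 ± 0.14). The called shares were 3.12% of biogenesis, 1.85% of mTORC1 and 5.26% of other pyrimidine-tract probes, against 1.93% of all probes. After quantile normalization no biogenesis probe was called higher and 1 was called lower, so the calls of Pes1 and Ncl ended, while 5 mitochondrial ribosomal probes were called higher and 1 lower. In 569 livers and in all fat comparisons with WT these lists held 0 called probes by limma. In liver 569, 14.7% of mitochondrial ribosomal, 14.8% of initiation, 14.1% of biogenesis and 42.1% of other pyrimidine-tract probes passed an unadjusted p under 0.05, against 7.01% of all probes. Their medians were -0.07, -0.07, 0.00 and -0.17, with 33 of 64 biogenesis probes above WT, and elongation had -0.14. The elongation and mTORC1 lists held 6.67% and 5.56%, below the share of all probes. After quantile normalization mitochondrial ribosomal probes had 9.3%, initiation 6.56%, biogenesis 10.9% and other pyrimidine-tract probes 31.6%, against 5.62% of all probes. In fat 569, 391, Box1 and KO the share of mitochondrial ribosomal probes at an unadjusted p under 0.05 was 15.5%, 6.2%, 4.65% and 10.1%. All probes had 8.96%, 4.58%, 4.54% and 6.24%. In the same order elongation had 6.67%, 0%, 26.7% and 6.67%, and other pyrimidine-tract probes 5.26%, 21.1%, 0% and 5.26%. Initiation had 9.84%, 8.2%, 8.2% and 4.92%, biogenesis 4.69%, 0%, 1.56% and 6.25%, and the mTORC1 list 7.41%, 5.56%, 11.1% and 9.26%. In KO against 391 the called probes of these lists were Eif3i (-0.87 ± 0.15), Mrps12 (-1.06 ± 0.17) and Polr1d (-0.68 ± 0.13), all lower in KO. These are 1.64% of initiation, 0.775% of mitochondrial ribosomal and 1.56% of biogenesis probes, against 0.18% of all probes. All mutants share the 3 WT arrays of a tissue, so their values against WT are given side by side and are not independent of each other.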

How the data were processed

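Per the labels' protocols, total RNA from frozen tissue was isolated on columns, labelled with biotin and read on Illumina bead arrays. The deposited ratio is relative to the probe's median over the 15 arrays of a tissue, read from the values: that median was 1 for all 46643 probes. The sources used here do not name the authors' background treatment, array normalization or software. Probes were named through the platform annotation, and all 109 member probes had a RefSeq gene.

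The log2 of the ratio was fitted by limma 3.58.1 under R 4.3.3, moderated by eBayes and two-sided, with no filter on low values. The fitting script was tested on simulated data. Named probes are Rplp0, Rps6, Rpl13a, Rpsa, Rps27l and Rpl3l, up to 6 called each way per comparison or the 3 smallest p, the 3 most and least alike per tissue, the 5 most alike non-members, and up to 3 called per list. The members, by a rule on names alone, and the lists were chosen with earlier results of these data known. Alternatives were quantile normalization, centring, log2(ratio + 0.1), 6 arrays, array weights, 1 probe per gene and leaving out arrays.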

Additional observations from a re-analysis of the deposited data

How the results depend on the processing

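In all 10 comparisons and all alternatives run, the member median differences moved by less than the SD of the array medians within a group. Leaving out 1 of 3 arrays can hardly move a mean by that much, so for those fits this outcome was nearly fixed in advance. In fat 569 against WT the median difference still went from -0.28 to -0.07 without 569 array 3. The median differences of fat 391, Box1, KO and KO against 391 changed sign in some fits. The counts of called probes moved more. In liver 391 against WT, 5 called probes became 0 with only the 6 arrays compared and 2 with array weights, and leaving out 1 array gave 0 to 5. In liver Box1 the count of 1 became 3 with quantile normalization, 2 with centred arrays, 4 with 6 arrays and 2 with array weights, and 0 to 2 without 1 array. In liver KO the count of 1 became 2 with quantile normalization and 2 with 6 arrays, and 0 to 1 without 1 array. For KO against 391, 0 became 1 with quantile normalization and 1 with 1 probe per gene, and 0 to 1 without 1 array. The test of liver against fat for 569 gave 0 to 1 without 1 array, an alternative chosen after seeing the data. The cause was not tested, beyond the fewer arrays in a fit. None of the 7 single calls changed direction, but each was lost in some alternatives: in 391, Rps21 in 8 of 13, Rpl10a and Rps29 in 7, Rpl3 in 6 and Rps6 in 4, Rps6 in Box1 in 3 of 12, and Rps9 in KO in 5 of 12. The groups of these calls do not overlap, so leaving out arrays could not turn their direction. The ratios hold no signal over background, so what depth limits cannot be read. No paired analysis was possible because the labels give no replicate numbers.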

Other observations

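Ribosomal protein genes that the naming rule leaves out were read beside the members. Fau, which encodes a small subunit protein, read 0.87, 0.82 and 0.85 in WT livers, 0.73, 0.61 and 0.52 in 569, 1.43, 1.13 and 1.11 in 391, 1.17, 1.16 and 1 in Box1 and 1.07, 1.26 and 0.94 in KO. The 391, Box1 and KO arrays lay above the WT arrays and the 569 arrays below them, with differences of 0.52 ± 0.14, 0.39 ± 0.14, 0.35 ± 0.14 and -0.46 ± 0.14, none of which was called (limma adjusted p from 0.068 to 0.44). Rpl22l1, a paralogue of Rpl22, lay lower than WT in all mutant livers, by -0.38 ± 0.11 in 569, -0.35 ± 0.11 in 391, -0.32 ± 0.11 in Box1 and -0.38 ± 0.11 in KO, and was not called either (limma adjusted p from 0.096 to 0.43). Rps3a1 read 0.75, 0.85 and 0.44 in KO livers against 1.08, 0.87 and 1.02 in WT, a difference of -0.59 ± 0.20 (limma adjusted p = 0.19).

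Of 24 probes for the integrated stress response and the surveillance of ribosomal RNA, Asns, an amino acid synthesis enzyme and target of that response, fell in the 391 (-1.24 ± 0.27), Box1 (-1.58 ± 0.27) and KO livers (-1.49 ± 0.27) against WT, with limma adjusted p of 0.030, 0.0084 and 0.0092. Cdkn1a, the cell cycle inhibitor p21, rose in the 391 livers by both of its called probes (2.91 ± 0.60 and 2.98 ± 0.58, limma adjusted p = 0.021 and 0.015). Eif2ak2, the kinase PKR, rose in the KO livers (0.83 ± 0.14, limma adjusted p = 0.0061). The list's called shares were 12.5%, 4.17% and 8.33% in 391, Box1 and KO livers, against 1.91%, 1.32% and 1.93% of all probes. In KO against 391 livers, on 1 slide, Cdkn1a probe 6400706 was called lower in KO (-3.39 ± 0.58) and Eif2ak2 higher (0.89 ± 0.14). Their limma adjusted p were 0.029 and 0.024, and Cdkn1a probe 4050088 was not called. These calls are 8.33% of the list, against 0.18% of all probes. None of the 24 was called by limma in 569 livers (4 at an unadjusted p under 0.05, 16.7% against 7.01% of all probes). After quantile normalization 1 was called lower there (4.17% against 0.0107%). In fat 569, 391, Box1 and KO against WT none was called by limma. At an unadjusted p under 0.05 there were 4, 1, 6 and 7, or 16.7%, 4.17%, 25% and 29.2%. All probes had 8.96%, 4.58%, 4.54% and 6.24%.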
